A study of Homo sapiens with 18 samples.

Results

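The genes described here are 10 components of the NF-κB pathway, chosen by their symbol in the gene count matrix out of 62754 genes. They are the transcription factor subunits NFKB1, NFKB2, RELA and RELB, the IκB inhibitors NFKBIA and NFKBIE, the ubiquitin-editing enzyme TNFAIP3, the adaptor TRAF1 and the ubiquitin ligases BIRC2 and BIRC3. All 10 passed the filter on low counts, which kept 15167 genes. They were measured by RNA sequencing in EA.hy926 cells, a line made by fusing human umbilical vein endothelial cells with the lung epithelial line A549, after a night in low serum. Mock cells received the transfection reagent Lipofectamine RNAiMAX without siRNA, siNT cells a non-targeting siRNA at 10 nM, and siELMO1 cells a pool of siRNAs against ELMO1 at 10 nM. RNA came from cells 48 h past transfection (0 h) and from cells that then spent 24 h in 1 μg/ml of the synthetic double-stranded RNA poly(I:C), which TLR3 senses. Each of the 6 conditions had 3 libraries, which the study describes as biological replicates, so there are 18 libraries in all. All 6 conditions share 1 cell line and the transfection reagent, and no untransfected group is analysed here, so effects of the reagent cannot be told apart from the state of the line.

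NF-κB is a family of dimeric transcription factors held in the cytoplasm of resting cells by IκB proteins. In the canonical pathway a receptor activates the IKK kinase complex, IκB is phosphorylated and degraded, and dimers such as RELA with p50, the processed product of NFKB1, enter the nucleus. In the noncanonical pathway the kinase NIK (MAP3K14) drives processing of the NFKB2 product p100 to p52, which pairs with RELB. Many genes that NF-κB induces encode its own brakes, among them IκBα (NFKBIA) and A20 (TNFAIP3), and in endothelial cells the pathway is best known for inducing adhesion molecules and chemokines during inflammation.

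Libraries held 40.4 to 73.9 M estimated counts, and levels below are counts per 1 M counts after TMM scaling (CPM), which makes libraries comparable but leaves gene length in. ELMO1, the targeted gene, was at 1.52 to 3.59 CPM in the 12 Mock and siNT libraries and at 0.155 to 0.419 CPM in the 6 siELMO1 libraries. Of 10 endothelial markers 9 had a median above 1 CPM, among them PECAM1, CDH5 and VWF, while EMCN had a median of 0. Of 8 epithelial markers, KRT7, KRT8 and KRT18 were above that level, EPCAM had a median of 0.509 CPM and CDH1 and SFTPC were at 0 in every library. Summed over the list, epithelial markers were at 1519 to 2227 CPM at 0 h and 844 to 1316 CPM at 24 h, and endothelial markers were at 1906 to 2288 CPM in siELMO1 and 1114 to 1500 CPM in Mock and siNT. The leukocyte list was at 35.7 to 100.4 CPM at 0 h and 140 to 285 CPM at 24 h, with CD68 and LYZ its only markers with a median above 1 CPM and CD3E at 0 in every library, and the fibroblast and smooth muscle list at 4.64 to 30.4 CPM with DCN and LUM at 0. Mitochondrially encoded genes took 1.31% to 2.42% of counts except in siELMO1 0 h replicates 2 and 3, at 4.02% and 3.95%, which were also the libraries with the lowest totals. The part of these marker and mitochondrial shifts in the results was not tested. All libraries came from 1 cell line, and in bulk RNA, fewer cells that express a marker and less of its RNA per cell cannot be told apart.

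Because NF-κB proteins bind the promoters of several of their own genes, promoter windows of the members were searched for the κB consensus, the generic 10-base NF-κB motif that on one of its strands begins with GGG and ends with CC, and for the interferon-stimulated response element (ISRE), read as GAAA, any 2 bases and GAAA, both on either strand. The windows run from 250 bases before to 50 bases after each RefSeq transcript start (GRCh38.p14), and 15 windows of 8 members were found, with RELB and NFKBIE not in the table. A κB match lay in a window of 5 of the 8 members, NFKB1, NFKB2, NFKBIA, TNFAIP3 and BIRC3, and in none of RELA, TRAF1 and BIRC2. Of all 27305 genes in the table, 13.3% held a match in a window, and 4.38% held an ISRE, which among the members occurred in RELA. Genes differ in their number of windows. Counted by window, 6 of the 15 held a κB match and 1 an ISRE. Of all 35116 windows, 11.3% and 3.57% did. The stretches below, each 30 bases and written 5′ to 3′ along the gene, show the matches in capitals.
NFKB1, chr4:102501300-102501329, plus strand, 49 bases before the start: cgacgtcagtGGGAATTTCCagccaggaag
NFKB2, chr10:102394461-102394490, plus strand, 107 bases before the start: gaaacgtcatGGGAATTCCCccctccgggg
NFKB2, chr10:102395674-102395703, plus strand, 21 bases before the start: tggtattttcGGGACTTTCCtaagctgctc
NFKBIA, chr14:35404811-35404840, minus strand, 81 bases before the start: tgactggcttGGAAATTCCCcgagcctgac
TNFAIP3, chr6:137867182-137867211, plus strand, 67 bases before the start: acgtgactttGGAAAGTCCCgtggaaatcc
TNFAIP3, chr6:137867194-137867223, plus strand, 55 bases before the start: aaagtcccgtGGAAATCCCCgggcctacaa
BIRC3, chr11:102317275-102317304, plus strand, 199 bases before the start: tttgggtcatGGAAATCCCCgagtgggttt
BIRC3, chr11:102317339-102317368, plus strand, 135 bases before the start: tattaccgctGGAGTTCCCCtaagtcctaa
RELA, chr11:65664075-65664104, minus strand, 237 bases before the start: agccactggaGAAACTGAAAtgagtgggcg
The first 8 lines are κB matches and the last is the ISRE match. The ISRE match lies in the RELA window at 65663808 to 65664107. That window lies wholly before the annotated RELA gene, whose first base on the minus strand is 65663090. The RELA window at 65662867 to 65663166, which spans that base, held 0 ISRE matches. The NFKB2 match 107 bases before the start is a palindrome that also matches 1 base further on the other strand, and 2 more NFKB2 matches lay 78 and 176 bases before a start. NFKB2 has several transcript starts, and its match 176 bases before a start is intronic in every transcript that spans it, while the others touch a noncoding part of an exon. The stretch at 55 bases in TNFAIP3 reaches into the first exon, and the stretches of NFKB1, NFKBIA, BIRC3 and RELA and the stretch at 67 bases in TNFAIP3 lie outside every annotated transcript of their gene. These matches describe letters in the windows and are not evidence of binding.

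The comparison of 24 h with 0 h addresses how each gene responded to poly(I:C). There was no 24 h group without poly(I:C), so its effect cannot be told apart from 24 h more in culture. The rises, responses and response differences below carry this limit. All 10 members rose in Mock, siNT and siELMO1 cells. In Mock, all 10 were higher at 24 h, where 30.7% of tested genes were called higher, and 9 rose by over 2-fold, where 8.60% of genes did. In siNT all 10 were higher (28.6% of genes) and 7 rose by over 2-fold (6.45%), and in siELMO1 all 10 were higher (28.0%) and 8 rose by over 2-fold (7.71%). Every 24 h library lay above every 0 h library for all 10 genes in each transfection, where 34.9%, 32.9% and 28.7% of genes did so in Mock, siNT and siELMO1. The median log2 fold change of the members was 3.42 in Mock, 2.39 in siNT and 3.02 in siELMO1, against 0.0066, 0.014 and −4.0e-05 over all genes tested. Tests are edgeR's quasi-likelihood test over all genes, with Benjamini-Hochberg adjustment, and a call is an adjusted p under 0.05.

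**Figure D1:**
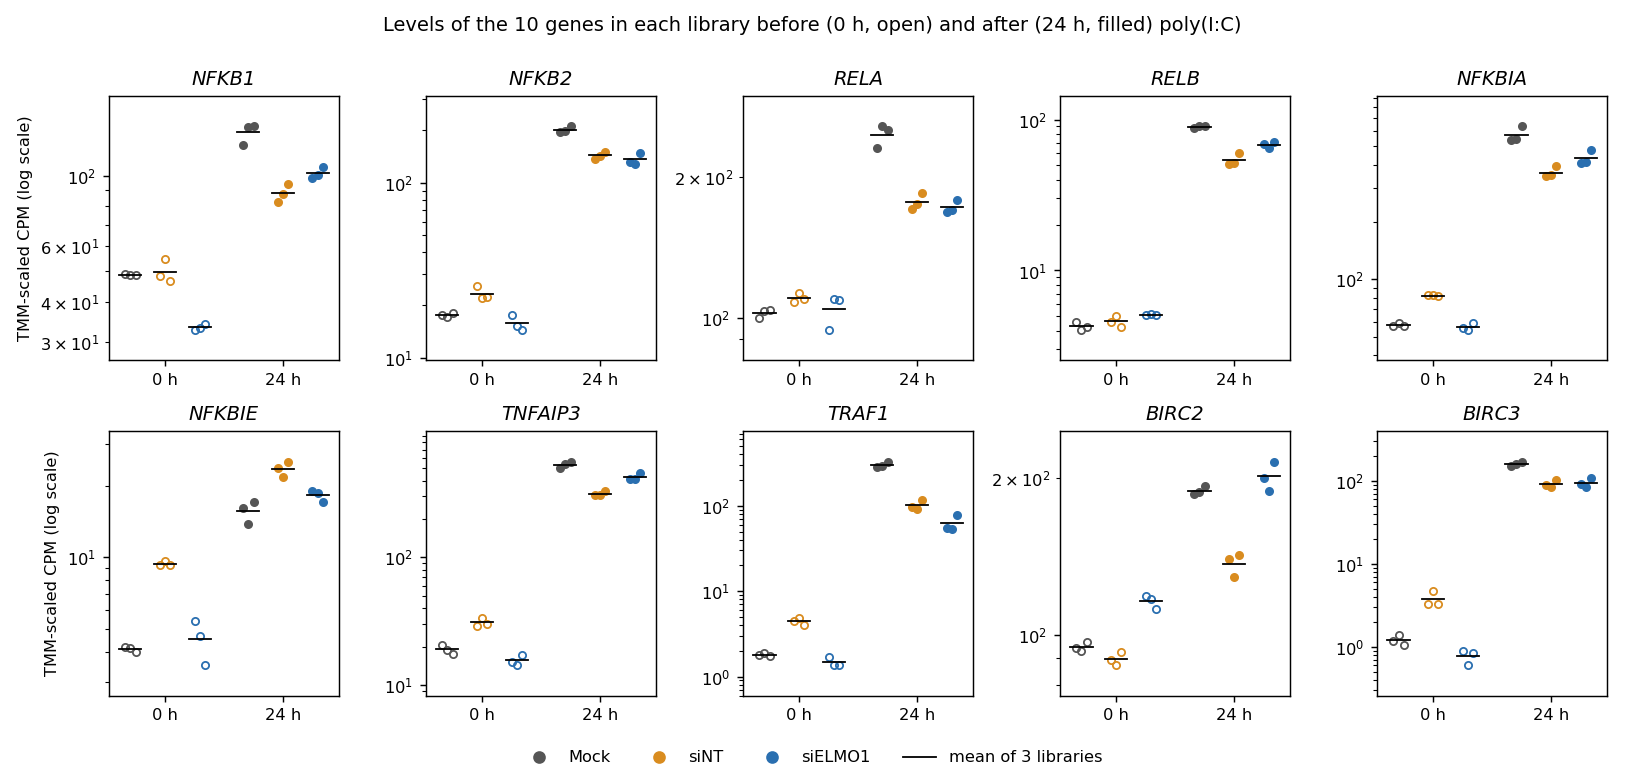
TMM-scaled CPM on a log scale of each gene in the 18 libraries, with open points at 0 h, filled points 24 h after poly(I:C), and a line at the mean of 3 libraries per condition. The 24 h libraries lie above the 0 h libraries of the same transfection in every panel, and the order of the transfections at 0 h differs from that at 24 h for TNFAIP3, where siNT is highest at 0 h and lowest at 24 h.

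Among the subunits, the smallest rises were those of RELA and NFKB1 and the largest those of RELB and NFKB2. Gene coordinates are those of GRCh38. RELA (ENSG00000173039.20, chromosome 11, 65653599 to 65663090, minus strand), the main transactivating subunit of the canonical pathway, was at 100.0, 104 and 104 CPM in Mock cells, 108, 113 and 109.6 CPM in siNT and 94.4, 109.8 and 109 CPM in siELMO1 at 0 h. At 24 h its levels were 230.2, 257 and 252 CPM in Mock cells, 171, 175 and 185 CPM in siNT and 168, 170.1 and 179 CPM in siELMO1. The 0 h groups overlapped, except that each siNT library lay above each Mock library, and at 24 h Mock lay above the other two, which overlapped. The log2 fold changes with poly(I:C) were 1.26 (SE 0.0579, adjusted p = 2.9e-12), 0.68 (SE 0.0575, adjusted p = 2.0e-08) and 0.72 (SE 0.0577, adjusted p = 8.2e-09) in Mock, siNT and siELMO1. RELA-DT lies on the other strand and overlaps RELA, and since the sources do not say that counting used the strand, its level carries that uncertainty.

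NFKB1 (ENSG00000109320.14, chromosome 4, 102501330 to 102617302, plus strand), which encodes p105 and its product p50, was at 49.0, 48.7 and 48.5 CPM in Mock cells, 48.5, 54.6 and 46.6 CPM in siNT and 32.8, 33.1 and 34.2 CPM in siELMO1 at 0 h. With poly(I:C) it reached, in the order Mock, siNT and siELMO1 that is kept for values without a group below, 125, 142 and 143 CPM, 82.8, 87.3 and 94.1 CPM and 98.1, 101 and 106 CPM. The siELMO1 libraries were the lowest at 0 h and lay between siNT and Mock at 24 h, without overlap. The log2 fold change was 1.49 in Mock (SE 0.0657, adjusted p = 1.7e-12), 0.82 in siNT (adjusted p = 9.8e-09) and 1.61 in siELMO1 (adjusted p = 9.9e-13). 

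The noncanonical subunits started lower and moved further. NFKB2 (ENSG00000077150.21, chromosome 10, 102394110 to 102402524, plus strand) was at 17.4, 17.0 and 18.0 CPM in Mock cells, 25.6, 21.9 and 22.2 CPM in siNT and 17.4, 15.2 and 14.5 CPM in siELMO1 before poly(I:C). At 24 h it was at 196, 197 and 211 CPM, 137, 142 and 150.0 CPM and 132, 129 and 147 CPM. RELB (ENSG00000104856.15, chromosome 19, 45001461 to 45038192, plus strand) was at 4.59, 4.06 and 4.23 CPM in Mock cells, 4.53, 5.03 and 4.24 CPM in siNT and 5.05, 5.17 and 5.05 CPM in siELMO1 before poly(I:C) and reached 88.0, 90.3 and 90.6 CPM, 51.0, 51.9 and 60.2 CPM and 68.9, 64.8 and 70.7 CPM. For both genes Mock was highest at 24 h without overlap. For NFKB2 siNT and siELMO1 overlapped there, while for RELB every siELMO1 library lay above every siNT library. NFKB2 rose 11.5-fold in Mock, 6.17-fold in siNT and 8.62-fold in siELMO1, with log2 fold changes of 3.52, 2.63 and 3.11 (SE 0.0787, 0.0759 and 0.0787, adjusted p = 1.5e-16, 9.7e-15 and 1.0e-15). RELB rose 20.9-fold, 11.8-fold and 13.4-fold, with log2 fold changes of 4.38, 3.56 and 3.74 (SE 0.0785, 0.0770 and 0.0778, adjusted p = 1.0e-17, 2.7e-16 and 8.3e-17).

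To compare levels between the genes, counts were divided by transcript length and scaled to 1 M per library (TPM). The length-scaled pool of the subunit mRNAs NFKB1, NFKB2, RELA, RELB and REL, the gene of c-Rel, was at 143 ± 2.05 TPM in Mock, 144 ± 4.53 TPM in siNT and 129.7 ± 5.10 TPM in siELMO1 at 0 h (SD, n = 3). At 24 h it was at 531 ± 21.6, 369 ± 22.4 and 392 ± 26.6 TPM. RELA made up 63.4 ± 0.657% of this pool in Mock, 61.5 ± 0.418% in siNT and 68.7 ± 2.42% in siELMO1 at 0 h and 38.4 ± 0.862%, 39.9 ± 0.647% and 37.9 ± 0.213% at 24 h. The RELA share was thus smaller at 24 h although RELA mRNA itself was higher. The NFKB2 share went from 10.3 ± 0.463%, 13.0 ± 1.01% and 9.88 ± 1.92% at 0 h to 28.5 ± 0.917%, 29.7 ± 0.285% and 27.1 ± 0.456% at 24 h. The RELB share went from 3.49 ± 0.319%, 3.56 ± 0.243% and 4.32 ± 0.162% to 17.5 ± 0.631%, 15.8 ± 0.616% and 18.6 ± 0.407%. Each of these differences was larger than the spread between libraries, and they are shares of mRNA, not of protein. NFKB1 took 21.0 ± 0.269%, 20.2 ± 0.974% and 15.5 ± 0.750% at 0 h, with siELMO1 lowest, and 14.6 ± 0.535%, 13.7 ± 0.223% and 15.3 ± 0.488% at 24 h, while REL stayed under 2% throughout.

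**Figure D2:**
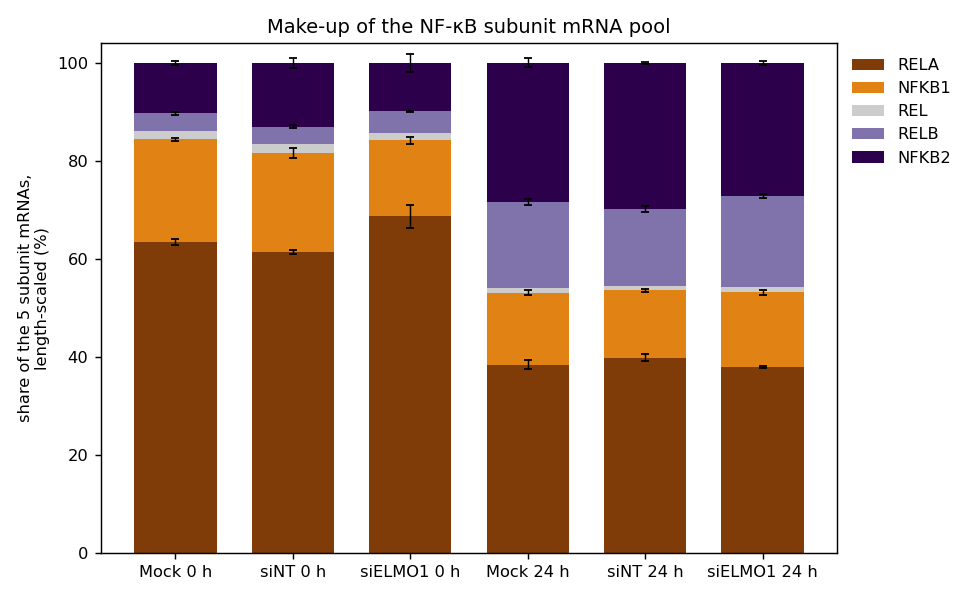
Share (%) of each subunit in the length-scaled mRNA pool of the 5 NF-κB subunits in the 6 conditions, as stacked means of 3 libraries with the SD of each share drawn at the top of its segment (not drawn for REL). RELA holds 61.5% to 68.7% at 0 h and 37.9% to 39.9% at 24 h, and the NFKB2 and RELB segments are larger at 24 h.

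Among the inhibitors, NFKBIA was among the most abundant members before poly(I:C) and became the most abundant after it, while NFKBIE stayed low. NFKBIA (ENSG00000100906.12, chromosome 14, 35401079 to 35404749, minus strand), which encodes IκBα, was at 56.9, 58.6 and 56.5 CPM in Mock cells, 82.8, 82.4 and 81.3 CPM in siNT and 55.8, 54.4 and 59.0 CPM in siELMO1 at 0 h. At 24 h it was at 536, 547 and 638 CPM, 347, 353 and 392 CPM and 409, 411 and 476 CPM, a rise of 10.0-fold, 4.43-fold and 7.66-fold. The siNT libraries were the highest of the 3 transfections at 0 h and the lowest at 24 h, in both cases without overlap. The log2 fold change in siNT was 2.15 (SE 0.0725, adjusted p = 8.0e-14), against 3.32 in Mock (SE 0.0760, adjusted p = 2.0e-16) and 2.94 in siELMO1 (SE 0.0751, adjusted p = 1.1e-15).

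NFKBIE (ENSG00000146232.17, chromosome 6, 44258166 to 44265788, minus strand), which encodes IκBε, was at 4.21, 4.15 and 4.00 CPM in Mock cells, 9.30, 9.67 and 9.27 CPM in siNT and 5.42, 4.67 and 3.52 CPM in siELMO1 at 0 h. At 24 h it was at 16.1, 13.9 and 17.0 CPM, 23.9, 21.8 and 25.3 CPM and 19.0, 18.6 and 17.2 CPM. It was the only member at its highest in siNT at both times, with every siNT library above every other library of that time. Its log2 fold changes with poly(I:C) were 1.93 (SE 0.12), 1.33 (SE 0.11) and 2.00 (SE 0.12) in Mock, siNT and siELMO1, with adjusted p of 1.5e-10, 2.2e-08 and 1.4e-10.

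TNFAIP3 (ENSG00000118503.18, chromosome 6, 137867214 to 137883314, plus strand), which encodes A20, an enzyme that removes and rebuilds ubiquitin chains on RIPK1 and other signaling proteins, was at 20.8, 18.8 and 17.5 CPM in Mock cells, 29.1, 33.4 and 30.1 CPM in siNT and 15.2, 14.3 and 17.3 CPM in siELMO1 at 0 h. At 24 h it was at 499.7, 538 and 562 CPM, 309, 308 and 331 CPM and 413, 410.2 and 457 CPM. As for NFKBIA, the siNT libraries were highest at 0 h and lowest at 24 h without overlap. TNFAIP3 rose 28.1-fold in Mock (log2 4.81, SE 0.0873, adjusted p = 1.1e-17), 10.2-fold in siNT (log2 3.35, SE 0.0816, adjusted p = 9.5e-16) and 27.3-fold in siELMO1 (log2 4.77, SE 0.0882, adjusted p = 2.2e-17). WAKMAR2 overlaps TNFAIP3 on the other strand.

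TRAF1 and BIRC3 had the widest range of all members. TRAF1 (ENSG00000056558.11, chromosome 9, 120902393 to 120929173, minus strand), an adaptor that binds TRAF2 and the BIRC ligases at TNF receptor family complexes, was at 1.77, 1.91 and 1.73 CPM in Mock cells, 4.53, 4.92 and 4.00 CPM in siNT and 1.71, 1.36 and 1.36 CPM in siELMO1 at 0 h. At 24 h it was at 282, 291 and 328 CPM, 96.5, 92.3 and 118 CPM and 55.6, 53.0 and 78.7 CPM, in the order Mock, siNT and siELMO1 without overlap. The rise was 167-fold in Mock (log2 7.38, SE 0.17, adjusted p = 2.1e-16), 22.8-fold in siNT (log2 4.51, SE 0.15, adjusted p = 5.8e-14) and 41.3-fold in siELMO1 (log2 5.37, SE 0.17, adjusted p = 2.3e-14). BIRC3 (ENSG00000023445.17, chromosome 11, 102317484 to 102339403, plus strand), the inducible ubiquitin ligase cIAP2, was at 1.18, 1.41 and 1.05 CPM in Mock cells, 3.30, 4.69 and 3.32 CPM in siNT and 0.885, 0.603 and 0.839 CPM in siELMO1 at 0 h. It reached 150.3, 159 and 171 CPM, 90.6, 85.8 and 103 CPM and 91.6, 85.1 and 109 CPM at 24 h, where siNT and siELMO1 overlapped and Mock lay above both. BIRC3 rose 132-fold, 24.8-fold and 119-fold, with log2 fold changes of 7.05 (SE 0.16, adjusted p = 1.3e-16), 4.63 (SE 0.14, adjusted p = 1.1e-14) and 6.90 (SE 0.17, adjusted p = 5.6e-16). An unnamed gene overlaps BIRC3 on the other strand.

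BIRC2 (ENSG00000110330.10, chromosome 11, 102347211 to 102378670, plus strand), which encodes the related ligase cIAP1 and lies 7807 bases from BIRC3, had a much narrower range. BIRC2 was at 94.1, 92.9 and 96.7 CPM in Mock cells, 89.5, 87.3 and 92.8 CPM in siNT and 118, 117 and 112 CPM in siELMO1 at 0 h, with siNT lowest and siELMO1 highest without overlap. At 24 h it was at 186, 188 and 193 CPM, 139.5, 129 and 142 CPM and 200.0, 189 and 215 CPM. Its log2 fold changes with poly(I:C), the smallest of the members in Mock and siNT, were 1.00 (SE 0.0498, adjusted p = 9.2e-12), 0.61 (SE 0.0497, adjusted p = 1.4e-08) and 0.80 (SE 0.0496, adjusted p = 2.9e-10).

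**Figure D3:**
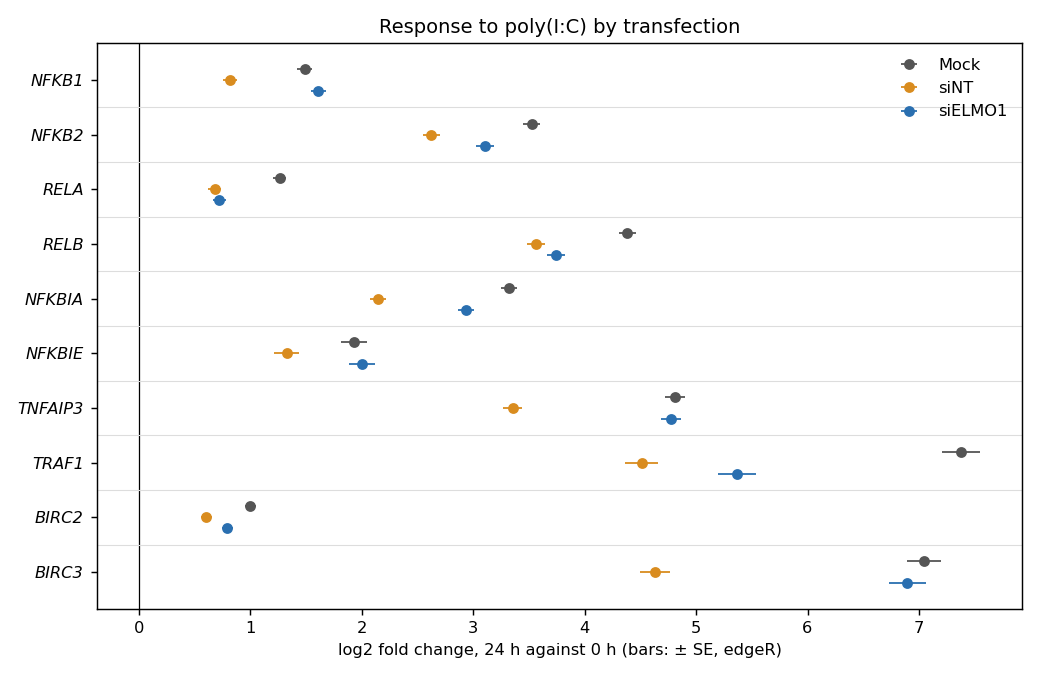
Log2 fold change of each gene 24 h after poly(I:C) against 0 h in Mock, siNT and siELMO1 cells, with bars of ± 1 SE from edgeR. The responses run from 0.61 for BIRC2 in siNT to 7.38 for TRAF1 in Mock, and the siNT response is the smallest of the 3 for all 10 genes.

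On the length-scaled scale the order of the members changed with poly(I:C). In Mock at 0 h the levels were 90.4 ± 2.13 TPM for RELA, 79.6 ± 13.5 TPM for NFKBIA, 64.0 ± 1.94 TPM for BIRC2 and 29.99 ± 0.237 TPM for NFKB1. They were 14.7 ± 0.711 TPM for NFKB2, 9.89 ± 0.867 TPM for TNFAIP3, 4.97 ± 0.400 TPM for RELB, 4.24 ± 0.287 TPM for NFKBIE, 1.01 ± 0.0601 TPM for TRAF1 and 0.507 ± 0.118 TPM for BIRC3. RELA and NFKBIA did not differ beyond their spread. After 24 h of poly(I:C) in Mock, NFKBIA at 675 ± 70.4 TPM and TNFAIP3 at 255 ± 16.3 TPM led, followed by RELA at 204 ± 11.2 TPM, TRAF1 at 155 ± 13.2 TPM and NFKB2 at 151 ± 6.59 TPM. TRAF1 and NFKB2 did not differ beyond their spread. Below them were BIRC2 at 123 ± 3.00 TPM, RELB at 93.1 ± 0.961 TPM, NFKB1 at 77.9 ± 5.67 TPM, BIRC3 at 54.5 ± 4.53 TPM and NFKBIE at 14.9 ± 1.62 TPM. NFKBIA and TNFAIP3 were also the highest at 24 h in siNT (445 ± 33.7 and 151 ± 6.98 TPM) and siELMO1 (523 ± 45.8 and 207 ± 16.5 TPM), although in siNT TNFAIP3 and RELA, at 147 ± 8.35 TPM, did not differ beyond their spread. With each gene's count divided by the length of its leading transcript instead, NFKBIA in Mock at 0 h was at 56.5 TPM, below BIRC2 at 61.3 TPM.

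The comparison of siNT with Mock addresses what a non-targeting siRNA did to these genes. At 0 h, before poly(I:C), 6 members were higher in siNT and 0 lower, where 27.6% of genes were called higher and 24.0% lower. The 6 were both inhibitors, TNFAIP3, TRAF1, BIRC3 and NFKB2. TRAF1, BIRC3 and NFKBIE rose by over 2-fold, which 2.20% of all genes did. BIRC3 was at 1.21 ± 0.181 CPM in Mock and 3.77 ± 0.793 CPM in siNT (SD, n = 3), or 1.63 on the log2 scale (SE 0.17, adjusted p = 2.9e-07). TRAF1 was at 1.80 ± 0.0932 and 4.48 ± 0.462 CPM, or 1.31 on the log2 scale (SE 0.18, adjusted p = 7.5e-06). NFKBIE was at 4.12 ± 0.104 and 9.41 ± 0.225 CPM, or 1.19 on the log2 scale (SE 0.12, adjusted p = 1.8e-07). The other 3 rose less, with log2 fold changes of 0.70 for TNFAIP3, 0.52 for NFKBIA and 0.41 for NFKB2 (adjusted p = 8.2e-07, 8.6e-06 and 2.0e-04). The canonical subunits NFKB1 and RELA, together with RELB and BIRC2, were not called, with log2 fold changes of 0.033, 0.10, 0.10 and −0.074 (SE 0.0651, 0.0573, 0.0803 and 0.0495). BIRC2 was called lower with only the libraries compared (adjusted p = 0.021, or 0.025 with a replicate block) and without TMM factors (adjusted p = 0.047). The median over the members was 0.46, against 0.028 over all genes.

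At 24 h most members lay below Mock, among them TNFAIP3, TRAF1, BIRC3, NFKBIA and NFKB2, which had been called higher at 0 h. Here 9 members were lower in siNT than in Mock, where 24.9% of genes were called lower, and NFKBIE alone was higher, where 25.2% were. Every siNT library lay outside the range of the Mock libraries for all 10, lower for 9 (28.8% of genes) and higher for 1 (28.6%). TRAF1 had the largest difference, at 301 ± 24.5 CPM in Mock and 102 ± 13.8 CPM in siNT, or −1.56 on the log2 scale (SE 0.12, adjusted p = 1.9e-08). It was the only member past 2-fold, where 3.83% of genes were lower by that much. The other 8 lower members ran from −0.78 for BIRC3 and −0.75 for TNFAIP3 to −0.48 for RELA and −0.47 for BIRC2. NFKBIE was at 15.7 ± 1.63 CPM in Mock and 23.6 ± 1.77 CPM in siNT, or 0.59 on the log2 scale (SE 0.11, adjusted p = 2.5e-04). The median over the members was −0.65, against −8.2e-05 over all genes. The study saw massive death of siNT cells after 24 h of poly(I:C), and much less in Mock and siELMO1 cells. The part of this death in the 24 h levels of siNT, and in comparisons that use them, was not tested.

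Whether the response to poly(I:C) itself differed was tested as an interaction, the log2 response in siNT minus that in Mock. It was smaller in siNT for all 10 members, where 16.0% of genes had a lower response and 15.0% a higher one. For 4 members the difference passed 2-fold, where 1.98% of genes did. They were TRAF1 at −2.87 (SE 0.21, adjusted p = 3.1e-08), BIRC3 at −2.42 (SE 0.20, adjusted p = 1.0e-07), TNFAIP3 at −1.46 (SE 0.11, adjusted p = 2.9e-08) and NFKBIA at −1.17 (SE 0.0990, adjusted p = 1.3e-07). For these 4 the siNT level was higher than Mock at 0 h and lower at 24 h, so both ends contribute to the difference. NFKBIE had a smaller response in siNT (−0.60, adjusted p = 0.0084) although its level was above Mock at both times. The smallest difference was that of BIRC2, at −0.39 (SE 0.0699, adjusted p = 3.5e-04).

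The comparison of siELMO1 with siNT addresses what the siRNAs against ELMO1 did beyond a non-targeting siRNA, and it shares the siNT libraries with the comparison above. At 0 h, 7 members were lower in siELMO1 and 1 was higher, where 31.3% of genes were called lower and 31.3% higher. BIRC3, TRAF1 and NFKBIE were lower by over 2-fold, which 6.22% of all genes were. BIRC3 was at 3.77 ± 0.793 CPM in siNT and 0.775 ± 0.151 CPM in siELMO1, or −2.23 on the log2 scale (SE 0.19, adjusted p = 1.4e-08). The log2 fold change was −1.57 for TRAF1 (SE 0.19, adjusted p = 1.4e-06), −1.05 for NFKBIE (SE 0.12, adjusted p = 5.0e-07) and −0.98 for TNFAIP3 (SE 0.0806, adjusted p = 7.4e-09). NFKB1, NFKB2 and NFKBIA fell by 0.58, 0.56 and 0.54 on the log2 scale (adjusted p = 5.5e-07, 5.3e-06 and 3.0e-06). BIRC2 was the member that was higher, at 89.9 ± 2.75 CPM in siNT and 116 ± 3.26 CPM in siELMO1, or 0.37 on the log2 scale (SE 0.0497, adjusted p = 4.5e-06). RELA and RELB were not called, at −0.077 and 0.15 (SE 0.0575 and 0.0814). The median was −0.57, against 0.00093 over all genes. In siELMO1 at 0 h the replicates with the larger mitochondrial share were both below the other for BIRC3, TRAF1, NFKBIE, NFKB2 and BIRC2 and both above it for NFKB1, RELA and, by under 0.2 CPM, RELB. The number of members called was also 8 when mitochondrially encoded genes or any 1 of the 3 siELMO1 libraries were left out.

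At 24 h, 5 members were higher in siELMO1 than in siNT and 2 were lower, where 26.0% of genes were called higher and 26.5% lower, and 0 differed by over 2-fold (7.31% of genes did). BIRC2 had the largest rise, from 137 ± 6.81 CPM in siNT to 201 ± 13.0 CPM in siELMO1, or 0.56 on the log2 scale (SE 0.0494, adjusted p = 6.2e-08). TNFAIP3 was at 316 ± 13.0 and 427 ± 26.2 CPM, or 0.43 on the log2 scale (SE 0.0736, adjusted p = 9.1e-05). RELB, NFKBIA and NFKB1 had log2 fold changes of 0.32, 0.25 and 0.21 (adjusted p = 5.0e-04, 0.0061 and 0.012). TRAF1 was lower at both times, here at 102 ± 13.8 CPM in siNT and 62.4 ± 14.2 CPM in siELMO1, or −0.71 on the log2 scale (SE 0.12, adjusted p = 1.0e-04). NFKBIE was also lower, by 0.37 on the log2 scale (SE 0.11, adjusted p = 0.0087). NFKB2, RELA and BIRC3 were not called, at −0.076, −0.039 and 0.033 (SE 0.0703, 0.0571 and 0.11). The call of NFKB1 was lost without siNT 24 h replicate 1 (adjusted p = 0.064) or siELMO1 24 h replicate 3 (adjusted p = 0.053).

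**Figure D4:**
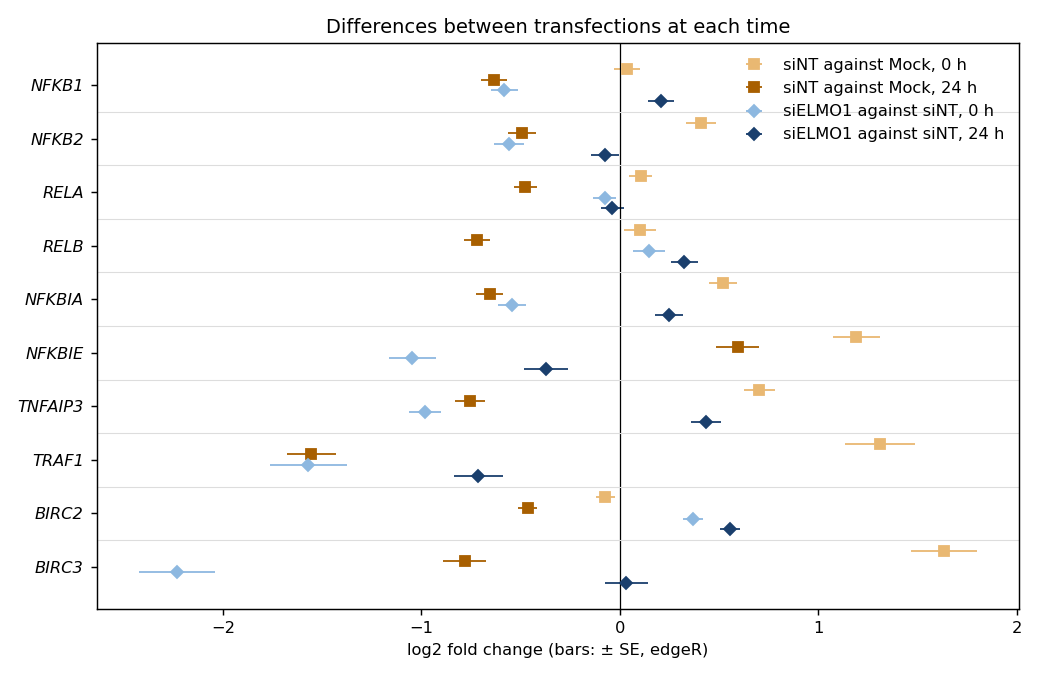
Log2 fold change of each gene between transfections, siNT against Mock (squares) and siELMO1 against siNT (diamonds), at 0 h (light) and 24 h (dark), with bars of ± 1 SE from edgeR. Light squares of NFKBIE, TRAF1 and BIRC3 lie above 1 and their light diamonds below −1, and both comparisons share the siNT libraries.

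The response to poly(I:C) was larger in siELMO1 than in siNT for 8 members, where 16.7% of genes had a larger response and 17.8% a smaller one. For BIRC3 and TNFAIP3 the difference passed 2-fold, where 3.83% of genes did, at 2.27 (SE 0.22, adjusted p = 4.2e-07) and 1.42 (SE 0.11, adjusted p = 1.9e-08). For BIRC3 the 24 h levels of the 2 groups overlapped, and the difference came with the lower 0 h level in siELMO1. TRAF1, NFKB1, NFKBIA, NFKBIE and NFKB2 had differences of 0.86, 0.79, 0.79, 0.67 and 0.48 (adjusted p = 0.0078, 3.3e-06, 7.6e-06, 0.0034 and 0.0015). TRAF1 and NFKBIE were lower in siELMO1 at both times and NFKB2 only at 0 h, so their differences also came with lower 0 h levels. NFKB1 and NFKBIA were lower at 0 h and higher at 24 h. The call of TRAF1 was lost with limma-voom (adjusted p = 0.155, or 0.142 with the number as random effect). BIRC2 was just past the threshold at 0.19 (SE 0.0699, adjusted p = 0.045), a call that was lost with any 1 of 8 libraries left out (adjusted p = 0.052 to 0.125). RELA and RELB were not called, at 0.038 and 0.18 (SE 0.0810 and 0.10).

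The comparison of siELMO1 with Mock, which shares libraries with both comparisons above, had 2 members higher and 3 lower at 0 h, where 27.9% of genes were called higher and 22.4% lower, and 0 differed by over 2-fold (7.79% of genes did). NFKB1 fell by 0.55 on the log2 scale (SE 0.0662, adjusted p = 2.0e-06), from 48.7 ± 0.221 CPM in Mock to 33.3 ± 0.741 CPM in siELMO1, and TNFAIP3 by 0.28 (SE 0.0811, adjusted p = 0.0077). BIRC3 fell by 0.60 (SE 0.22, adjusted p = 0.033). BIRC2 and RELB were higher, at 0.29 (SE 0.0496, adjusted p = 8.6e-05) and 0.25 (SE 0.0811, adjusted p = 0.017). NFKBIA, RELA, NFKBIE, NFKB2 and TRAF1 were not called, with log2 fold changes of −0.025, 0.027, 0.15, −0.15 and −0.26 (SE 0.0711, 0.0575, 0.12, 0.0772 and 0.21). Without Mock 0 h replicate 2 the calls of RELB and BIRC3 were both lost and 3 members were called in place of 5. RELB was also lost without Mock 0 h replicate 3 (adjusted p = 0.090), and BIRC3 without siELMO1 0 h replicate 2 or 3 (adjusted p = 0.116 and 0.060).

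At 24 h, siELMO1 cells had lower levels than Mock for 8 members and higher levels for 0, where 22.0% of genes were called lower and 21.6% higher. TRAF1 again had the largest difference and the only one past 2-fold, where 1.80% of genes were, at 301 ± 24.5 CPM in Mock and 62.4 ± 14.2 CPM in siELMO1, or −2.27 on the log2 scale (SE 0.13, adjusted p = 4.3e-10). BIRC3, NFKB2, RELA, NFKB1, NFKBIA, RELB and TNFAIP3 fell by 0.75, 0.57, 0.52, 0.43, 0.41, 0.40 and 0.32 on the log2 scale, with adjusted p from 1.1e-06 to 0.0017. NFKBIE and BIRC2 were not called, at 0.22 and 0.090 (SE 0.11 and 0.0491), and NFKBIE was called higher with limma-voom (adjusted p = 0.048). As interactions, 6 members responded less in siELMO1 than in Mock and 0 more, where 14.6% and 13.8% of genes did. TRAF1 was the only one past 2-fold (1.22% of genes), at −2.01 (SE 0.25, adjusted p = 1.3e-05). RELB, RELA, NFKB2, NFKBIA and BIRC2 followed at −0.64, −0.54, −0.42, −0.39 and −0.20 (adjusted p = 1.8e-04, 8.1e-05, 0.0062, 0.0074 and 0.038). The call of BIRC2 was lost with any 1 of 10 libraries left out (adjusted p = 0.052 to 0.146). The responses of NFKB1, NFKBIE, TNFAIP3 and BIRC3 were not called as different, with interaction values of 0.12, 0.074, −0.039 and −0.15 (SE 0.0920, 0.16, 0.11 and 0.25).

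The rest of the pathway was counted in 4 lists. Of the 5 other NF-κB and IκB genes, 4 rose with poly(I:C) in Mock, 3 in siNT and 5 in siELMO1, with 0 falling, and list medians of 0.85, 0.78 and 1.12. NFKBIZ, which encodes the nuclear IκBζ, led in Mock at 4.30 (SE 0.12, adjusted p = 2.9e-15) and was −2.71 in siNT against Mock at 24 h (adjusted p = 1.3e-11) and 2.17 in siELMO1 against siNT (adjusted p = 7.5e-11). Before poly(I:C), 1 of these 5 genes was lower in siNT than in Mock and 0 higher (24.0% and 27.6% of all genes). It was NFKBIB, the gene of IκBβ, at −1.17 (SE 0.0793, adjusted p = 1.8e-09). Of the 8 IKK and upstream kinases, 4 rose and 1 fell in Mock with poly(I:C), 4 rose and 2 fell in siNT, and 5 rose and 1 fell in siELMO1, with IKBKE, a noncanonical IKK, the largest in each at 1.98, 1.76 and 1.74. The medians of the kinases were 0.22, 0.11 and 0.22. Over all genes, 30.7% rose and 29.6% fell in Mock, 28.6% and 25.2% in siNT, and 28.0% and 26.9% in siELMO1. At 0 h, 6 of the kinases were higher and 1 lower in siNT than in Mock (27.6% and 24.0% of all genes), and 2 were higher and 5 lower in siELMO1 than in siNT (31.3% and 31.3%). MAP3K14, the gene of NIK, led both, at 1.27 (SE 0.0823, adjusted p = 1.1e-09) and −1.50 (SE 0.0838, adjusted p = 4.4e-11).

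Of the 19 adaptors and ubiquitin regulators, 14 rose and 0 fell with poly(I:C) in Mock, 16 rose and 1 fell in siNT, and 13 rose and 0 fell in siELMO1, with TNIP3, which binds A20, the largest in each at 5.41, 4.63 and 5.18. Their medians were 0.66, 0.71 and 0.53. Over all genes, 30.7%, 28.6% and 28.0% rose and 29.6%, 25.2% and 26.9% fell. At 0 h the counts lay closer to those over all genes, with 7 of 19 higher and 4 lower in siNT than in Mock (27.6% and 24.0% of all genes) and 7 higher and 8 lower in siELMO1 than in siNT (31.3% and 31.3%). The largest difference in both was that of TRAF3, part of the complex with TRAF2 and BIRC ligases that targets NIK for degradation, at −1.12 (SE 0.0646, adjusted p = 2.3e-10) and 1.20 (SE 0.0649, adjusted p = 2.9e-11). The mRNAs of TRAF3 and MAP3K14 thus moved in opposite directions in each of these comparisons. A link between them was not tested, and NIK protein is not measured by these data. At 24 h, 3 of the 19 were higher and 11 lower in siNT than in Mock (25.2% and 24.9% of all genes), and 8 were higher and 4 lower in siELMO1 than in siNT (26.0% and 26.5%). TNIP1, another A20 binding protein, led both, at −1.01 and 0.63 (adjusted p = 7.2e-10 and 1.4e-07).

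Of 14 commonly cited NF-κB target genes outside the members, 12 passed the filter, and VCAM1 and SELE did not. The study had already reported several of these, among them CXCL1 and TNF, from the same libraries. It found them raised by poly(I:C), less so in siNT, and higher at 24 h in siELMO1 than in siNT. The counts below are therefore not independent of that report. With poly(I:C), 12 rose in Mock, 11 in siNT and 12 in siELMO1 (30.7%, 28.6% and 28.0% of all genes). Their medians were 6.13, 3.29 and 5.36 when TNF was set to its bound. TNF, the gene of tumor necrosis factor, had 0 counts in every 0 h library. At 24 h it was at 2.77 ± 0.910 CPM in Mock, 7.69 ± 2.86 CPM in siELMO1 and 0.204 ± 0.201 CPM in siNT, where the spread was as large as the mean. Against the limit of 3 counts per library it was at least 66.5-fold higher at 24 h in Mock and at least 131-fold in siELMO1. In siNT the mean gave at least 4.40-fold, and TNF was among the 11 genes called higher there. In siNT against Mock at 24 h all 12 were lower (24.9% of all genes), with a median of −2.28. The chemokine gene CXCL1 had the largest difference, at −4.10 (SE 0.21, adjusted p = 1.2e-10). In siELMO1 against siNT at 24 h all 12 were higher (26.0% of all genes), with a median of 1.58. At 0 h, 7 of 12 were higher and 1 lower in siNT than in Mock (27.6% and 24.0% of all genes), and 3 were higher and 6 lower in siELMO1 than in siNT (31.3% and 31.3%). The medians at 0 h were 0.47 and −0.26 without TNF. The largest change in siELMO1 against siNT at 0 h ran against that median, namely PTGS2, the gene of cyclooxygenase-2, at 3.62 (SE 0.14, adjusted p = 6.3e-13). The members had medians of −0.65 and 0.12 in the same comparisons at 24 h, and the contrast between the lists was not tested.

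Genes with a profile most like that of each member were sought among 10801 tested genes with a mean of at least 5 CPM, by the root mean square difference over the 18 libraries of log2 CPM centered on each gene's own mean. TRAF1 and BIRC3 had the same nearest genes, GBP1 and IFIT3, a guanylate-binding protein and an interferon-induced protein. The difference from GBP1 was 0.47 for TRAF1 and 0.32 for BIRC3, against 2.84 and 2.94 for the spread of the members themselves. RELB was nearest to TAP1 and ISG20 (0.15 and 0.15, own spread 1.89), and NFKBIA to TDRD7 and IRF1 (0.12 and 0.13, own spread 1.42). NFKB2 was nearest to DTX3L and TDRD7 (0.15 and 0.16) and TNFAIP3 to PARP9 and HELZ2 (0.22 and 0.22). The nearest genes of NFKB1 were RUBCN and SAR1A (0.16 and 0.17), those of RELA C15orf39 and CTNNBL1 (0.12 and 0.12), those of NFKBIE HES7 and S100A3 (0.22 and 0.30) and that of BIRC2 was CCNYL1 (0.078). For NFKB1, RELA, TNFAIP3 and BIRC2 the nearest gene changed when the 6 condition means were used in place of the libraries.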

How the data were processed

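EA.hy926 cells were sequenced as 18 libraries in 6 conditions with the KAPA Stranded mRNA-Seq kit and paired reads of 100 bp. According to the submitters' processing notes and the study's methods, the authors aligned reads to GRCh38 with STAR and made matrices of estimated counts (expected counts) per gene and per transcript with StringTie and GENCODE release 44. These deposited values are whole numbers, not normalized for depth or length. The read length given to that step, tool versions and the use of strand are not given in the sources used here. Totals of 40.4 to 73.9 M are therefore not read numbers, and the limit of 3 counts for a count of 0 covers counting error alone, as PCR copies of a molecule cannot be recognized without molecular identifiers.

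The study's filter (100 counts or more over all libraries, 1 CPM or more in some library) was applied. One edgeR 4.0.16 model (R 4.3.3) with TMM factors (0.958 to 1.06) and 6 groups was fitted to all libraries, and the quasi-likelihood F test (two-sided) gave 12 comparisons, with Benjamini-Hochberg adjustment over 15167 genes. The biological coefficient of variation was 12.2%. Lengths for TPM came from the annotation, and RefSeq promoters were matched by symbol for 8 of 10 members. Alternatives were DESeq2 1.42.0, limma-voom (limma 3.58.1), other scalings and filters, a replicate block and each library left out. The members and the gene lists were chosen with earlier results of these data known. The genes named are the members, ELMO1, markers, the gene with the largest called change in each pathway list, and the 2 genes most alike each member, of which 1 is not reported here. TNF, VCAM1 and SELE are named because the list could not be described without them, and NFKBIZ, TNIP3 and MAP3K14 are given in further comparisons where they also led.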

Additional observations from a re-analysis of the deposited data

Results flagged for a closer look

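The response to poly(I:C), as a log2 fold change, differed between transfections for 24 of the 30 combinations of member and pair of transfections by edgeR's interaction test with adjusted p under 0.05. Over all genes it differed for 31.0% in siNT minus Mock, 34.5% in siELMO1 minus siNT and 28.3% in siELMO1 minus Mock. Comparisons of the same groups share libraries and are not independent.

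In siNT minus Mock, all 10 members had a smaller response, where 16.0% of genes did. The differences were −2.87 for TRAF1, −2.42 for BIRC3, −1.46 for TNFAIP3 and −1.17 for NFKBIA. They were −0.90 for NFKB2, −0.82 for RELB, −0.67 for NFKB1, −0.60 for NFKBIE, −0.58 for RELA and −0.39 for BIRC2.

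In siELMO1 minus siNT, 8 members had a larger response, where 16.7% of genes did. The differences were 2.27 for BIRC3, 1.42 for TNFAIP3, 0.86 for TRAF1 and 0.79 for NFKB1. They were 0.79 for NFKBIA, 0.67 for NFKBIE, 0.48 for NFKB2 and 0.19 for BIRC2. The call of BIRC2 was lost with any 1 of 8 libraries left out, and that of TRAF1 with limma-voom (adjusted p = 0.155).

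In siELMO1 minus Mock, 6 members had a smaller response, where 14.6% of genes did. The differences were −2.01 for TRAF1, −0.64 for RELB, −0.54 for RELA, −0.42 for NFKB2, −0.39 for NFKBIA and −0.20 for BIRC2. Here the call of BIRC2 was lost with any 1 of 10 libraries left out and with DESeq2 (adjusted p = 0.052).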

How the results depend on the processing

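Over 2340 values under alternatives, 2251 kept their direction and side of the threshold, 54 lost and 11 gained a call and 24 changed sign, 0 of them among the 98 of 120 values called. The count of members called moved by over 1.5 times only for siELMO1 against Mock at 0 h, from 5 to 3 with limma-voom (with or without the replicate number as a random effect) and with only the libraries compared (with or without a block). With 1 library left out it ran from 3 to 6. Same-numbered libraries deviated together with a median r of 0.03 over 45 pairs across 11033 genes, and all 3 were over 0.1 for siELMO1 0 h with siNT 24 h (0.15, 0.13 and 0.14) and for no other pair of groups, so the numbers were not taken to pair the libraries. Those groups are not compared directly but both enter the response difference of siELMO1 minus siNT. With the replicate block over all 18 libraries that count was 5, and this fit changed no call.

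The values that changed sign were small. In siNT against Mock at 0 h NFKB1 was −0.026 without TMM factors, −0.0023 without mitochondrially encoded genes and −0.036 to 0.080 with 1 library left out. In siELMO1 against siNT at 24 h BIRC3 was −0.013 without TMM factors and −0.075 to 0.11 with 1 library left out. In siELMO1 against Mock at 0 h RELA was −0.017 and −0.015 with only the libraries compared (with and without the block), −0.056 without TMM factors, −0.013 without the filter, −0.00358 without mitochondrially encoded genes and −0.021 to 0.096 with 1 library left out, and NFKBIE was −0.017 to 0.30. Of the response differences, TNFAIP3 in siELMO1 minus Mock was 0.0200 without TMM factors, 0.0035 without the filter and −0.095 to 0.042 with 1 library left out, NFKBIE −0.080 to 0.24, and RELA in siELMO1 minus siNT −0.032 to 0.075. The cause was not tested. Calls near the threshold (BIRC2 in 2 response differences, RELB and BIRC3 in siELMO1 against Mock at 0 h) were lost under several alternatives. Calls were gained by NFKB2 in siELMO1 against Mock at 0 h without TMM factors (adjusted p = 0.032), by BIRC2 in siNT against Mock at 0 h under 3 settings (adjusted p = 0.021 to 0.047) and by NFKBIE in siELMO1 against Mock at 24 h with limma-voom, with and without the random effect (adjusted p = 0.043 and 0.048). With 1 library left out, calls were gained for RELB in siELMO1 against siNT at 0 h without siNT 0 h replicate 2 (adjusted p = 0.041), for NFKB2 and NFKBIE in siELMO1 against Mock at 0 h without siELMO1 0 h replicate 1 and 3 (adjusted p = 0.017 and 0.023), for BIRC2 in siELMO1 against Mock at 24 h without siELMO1 24 h replicate 2 (adjusted p = 0.047), and for the RELB response in siELMO1 minus siNT without siNT 24 h replicate 3 (adjusted p = 0.045). Of 66 length-scaled levels, 24 moved by over 1 SD with the leading transcript's length, the lowest being 0.709 of the value given, for NFKBIA.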

Other observations

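The transcript matrix divides each member's counts over annotated transcripts, and these shares varied widely among libraries of 1 condition. A single transcript (ENST00000373887.8) held 99.86% to 100% of TRAF1 counts in every library. For TNFAIP3, the protein-coding transcript ENST00000421450.2 held 71.6% to 80.1% of counts in Mock at 24 h and 0.243% to 38.1% in siNT at 24 h, while ENST00000612899.5, also protein-coding and with 4665 in place of 4689 bases, held 2.92% to 6.48% and 42.5% to 74.7%. In siELMO1 at 24 h the first of these ranged from 6.59% to 65.0%. The transcript with the most NFKBIA counts over all libraries (ENST00000697958.1), with 39.4%, is annotated as a retained intron, and its share ran from 0% to 48.2% among the Mock 0 h libraries. The main RELB transcript (ENST00000221452.13) held 94.3% to 95.4% of RELB counts in Mock at 24 h, 91.3% to 93.2% in siNT and 88.8% to 96.3% in siELMO1.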
